A study of Mus musculus with 6 samples.

Results

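The 40 genes described here encode the core machinery of macroautophagy and its main cargo receptors, out of 55335 mouse genes in the deposited table. They were taken by name from a list of the induction kinase complex, the lipid kinase complex, the membrane-building proteins, the conjugation enzymes, the ATG8 family, the receptors and the fusion factor Stx17. All 40 were present, each under 1 Ensembl identifier, and 39 passed the filter for the test, which asked for a mean over all 6 libraries of 1 FPKM or more. RNA came from RAW 264.7 cells, an established mouse macrophage line labelled as wild type. In the 3 LPS plus ultrasound libraries the cells received 200 ng/ml lipopolysaccharide (LPS, a bacterial cell wall component sensed through TLR4) for 8 h and, within that period, 10 min of low-intensity ultrasound. It was delivered as 200 µs pulses repeated at 1 kHz (20% duty cycle), with a carrier of 1 MHz and an intensity of 50 mW/cm². The 3 LPS libraries came from cells with the same LPS exposure and no ultrasound. No cells free of LPS enter the comparison, and how these genes respond to LPS was therefore not measured. Separate cultures are not stated for the 3 libraries of either group, so the p-values rest on variation among these libraries alone, part or all of which may be technical.

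Autophagy encloses cytoplasm in a double membrane and delivers it to the lysosome. The ULK kinase complex starts the process, a class III phosphatidylinositol kinase complex makes the lipid signal on the forming membrane, and lipid transfer proteins feed its growth. Ubiquitin-like enzymes then attach ATG8 proteins (the LC3 and GABARAP proteins) to the membrane, receptors such as SQSTM1 link cargo to them, and syntaxin 17 takes part in fusion with the lysosome. In macrophages the same machinery serves the removal of bacteria and damaged mitochondria and restrains inflammatory signalling. Transcript levels do not measure autophagic flux, which depends on protein turnover and modification.

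The libraries carried a macrophage profile. Of 11 macrophage markers 10 reached 1 FPKM, led by Fcer1g at a mean of 899 FPKM, while Mertk was at 0.00272 FPKM. None of the 7 skeletal muscle, 7 fibroblast and tendon, 5 neutrophil, 4 T cell, 4 B cell, 4 dendritic cell, 3 endothelial and 3 erythroid markers did, although an extraction text in the labels describes rat muscle. Some of these low sums moved with the groups: over the 3 libraries the fibroblast and tendon markers summed to 0.587 to 0.877 FPKM with ultrasound and 0.263 to 0.539 FPKM with LPS alone, and the endothelial markers to 0.661 to 0.817 FPKM with ultrasound and 0.278 to 0.495 FPKM with LPS alone. The sums of the B cell markers, 0.0679 to 0.116 FPKM with ultrasound and 0.0313 to 0.0517 FPKM with LPS alone, did not overlap either. All these sums rested on genes with means below 1 FPKM. Scx, at a mean of 0.566 FPKM over all libraries, was the highest fibroblast and tendon marker, and 3 of the 7 were at 0. Cdh5, at 0.4105 FPKM, was the highest endothelial marker, and 2 of the 4 B cell markers were at 0. Among all tested genes 23.2% did not overlap between the groups, and the part of these markers in the results was not tested. LPS library 2 stood apart from the others: principal component 1, with 41.9% of the variance of the tested genes, placed it at 28.8, against -17.7 to 2.03 for the other 5 libraries.

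No gene of the group passed the test. FPKM, fragments per transcript length and library size, were compared as log2(FPKM + 1) with limma, and 0 of the 39 tested genes had a Benjamini-Hochberg adjusted p below 0.05, against 0.0177% of the 11270 genes tested. The adjusted p of the group ran from 0.22 to 1.0. In bulk RNA, fewer cells that express a gene and less of its RNA per cell cannot be told apart. At an unadjusted limma p below 0.05, 2 genes, Stx17 and Gabarapl2, were higher with ultrasound and 2, Ambra1 and Atg4b, were lower. The background was 6.18% of all tested genes higher and 9.16% lower at that level (15.3% in either direction), so the counts of the group lie near it. The values of all 3 ultrasound libraries lay above those of all 3 LPS libraries for 4 genes (background 9.80%), namely Stx17, Gabarapl2, Map1lc3b and Gabarap. They lay below for 5 of the tested genes (background 13.4%), namely Ambra1, Atg4b, Atg4c, Atg9a and Calcoco1, and 23.2% of all tested genes were separated in either direction. With library weights 0 of the 39 passed as well (background 0.630% higher and 1.35% lower). Altogether 18 of the 39 genes had a positive and 21 a negative log2 difference. Their median was -0.0051, and that of all tested genes was -0.017.

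The intervals describe the differences among these libraries. Like the p-values, they rest on variation that may be technical, so they do not bound the effect of ultrasound on separate cultures. A difference is always LPS plus ultrasound minus LPS on the log2(FPKM + 1) scale, which understates the change of low genes, and its interval is the 95% confidence interval of limma. For 36 of the 39 genes this interval lay inside a 1.5-fold change in either direction (±0.58) on this scale, and for all 39 inside a 2-fold change. In FPKM the limits of low genes, such as Stx17 with an upper limit of 0.81, lie further out. The same held for 78.9% and 95.7% of all tested genes. The exceptions at 1.5-fold were Stx17, Ambra1 and Atg4d. 

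**Figure D1:**
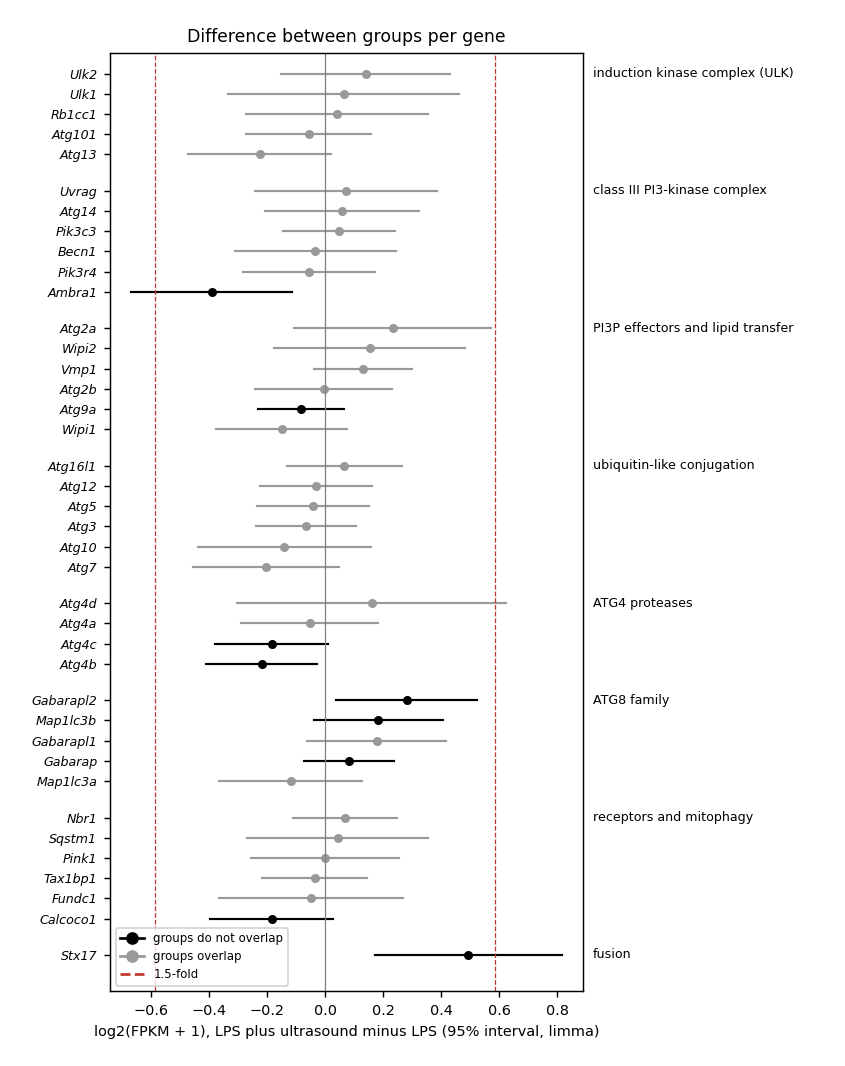
LPS plus ultrasound minus LPS, as a difference on the log2(FPKM + 1) axis, for the 39 tested autophagy genes by role, with 95% confidence intervals from limma (3 libraries per group). The 9 genes whose groups do not overlap are in black, and 3 intervals, those of Stx17, Ambra1 and Atg4d, extend past the dashed 1.5-fold lines.

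Levels spanned a wide range. Sqstm1 was the most abundant gene, averaging 566 FPKM in all libraries together, with rank 48 among the 11270 tested genes, and Gabarap (136 FPKM) and Gabarapl1 (98.3 FPKM) followed. The ranges of these 3 over the 6 libraries overlapped neither each other nor that of Atg13, the next gene. Counting Gabarapl1, 10 genes had 20 to 100 FPKM, 21 had 5 to 20 FPKM, 6 had 1 to 5 FPKM, and Optn was the only one below 1 FPKM. Of the 39 pairs of neighbours in this order, 6 had ranges that did not overlap, so most neighbouring levels cannot be ranked. The median level of the 39 tested genes was 12.96 FPKM, and that of all tested genes was 8.04 FPKM.

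**Figure D2:**
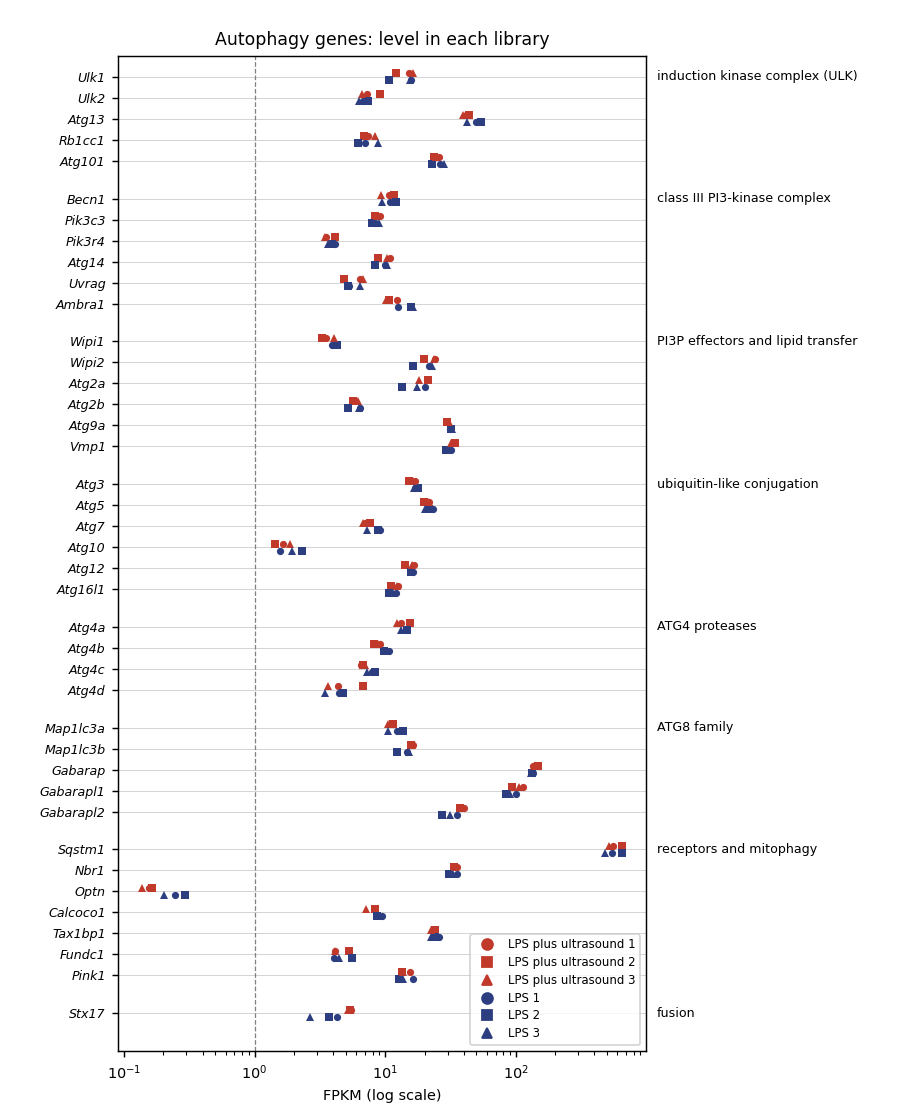
FPKM of the 40 autophagy genes in each library on a log axis, by role (red, LPS plus ultrasound; blue, LPS; circle, square and triangle for replicates 1, 2 and 3). Sqstm1, Gabarap and Gabarapl1 lie to the right of all others, and Optn alone lies left of the dashed line at 1 FPKM.

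None of the 5 induction complex genes passed the test, and their differences ran from -0.23 to 0.14. This complex joins the ULK1 or ULK2 kinase to the scaffold proteins ATG13, RB1CC1 (FIP200) and ATG101. Atg13 was its most abundant transcript, at 41.5, 43.5 and 39.1 FPKM in LPS plus ultrasound libraries 1, 2 and 3, against 49.9, 54.4 and 42.0 FPKM in LPS libraries 1, 2 and 3. Ultrasound library 2 lay above LPS library 3, so the groups overlapped, and each ultrasound library was below the LPS library of its number. The difference was -0.23 ± 0.10 (SE, limma, adjusted p = 0.36, and 0.099 with the replicate number as a block), and -0.14 without LPS library 2. The kinase gene Ulk1 averaged 14.5 ± 2.15 FPKM with ultrasound and 14.0 ± 2.88 FPKM with LPS alone (SD, n = 3 each). Ulk2 averaged 7.69 ± 1.30 FPKM with ultrasound and 6.85 ± 0.577 FPKM with LPS alone. Of the summed Ulk1 and Ulk2 FPKM, Ulk1 made up 65.2% ± 7.28 with ultrasound and 66.6% ± 6.76 with LPS alone, and in both groups library 2 had the lowest share. Rb1cc1 and Atg101 had differences of 0.04 and -0.06, and of -0.0622 and -0.14 without LPS library 2.

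In the lipid kinase complex, Ambra1 had the largest negative difference of the 39 genes. PIK3C3 is the catalytic subunit, PIK3R4 its regulatory partner and BECN1 the scaffold. ATG14 directs the complex to autophagosome formation, UVRAG to endosomal traffic, and AMBRA1 is a BECN1-binding adaptor that also serves ubiquitin ligases. Ambra1 had 12.3, 10.6 and 10.2 FPKM in LPS plus ultrasound libraries 1, 2 and 3, against 12.6, 15.7 and 16.3 FPKM in LPS libraries 1, 2 and 3. The groups did not overlap, but ultrasound library 1 lay just below LPS library 1. The difference was -0.39 ± 0.12, with an interval of -0.67 to -0.12 (limma, adjusted p = 0.23, and 0.13 with the replicate block). Differences of the other 5 genes of the complex lay between -0.06 and 0.07. Becn1 averaged 10.6 ± 1.19 FPKM with ultrasound and 10.85 ± 1.35 FPKM with LPS alone, and Pik3c3 averaged 8.69 ± 0.397 FPKM with ultrasound and 8.385 ± 0.515 FPKM with LPS alone. A share of 45.7% of the 50-base stretches in the longest annotated Becn1 transcript also occurs in transcripts of other genes, so reads there may have been divided. Among these genes, Cntd1 overlaps the Becn1 exons by 3104 bases on the opposite strand and averaged 0.0588 FPKM over all libraries. Mrps17 and Ifnar1, which also share such stretches, averaged 3.51 and 17.9 FPKM. Their part in the Becn1 values was not tested.

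Among the proteins that act on the growing membrane, differences ran from -0.15 to 0.23. WIPI1 and WIPI2 bind the lipid signal, ATG2A and ATG2B transfer lipids from the endoplasmic reticulum, and ATG9A and VMP1 are lipid scramblases. Vmp1, which also hosts the microRNA Mir21a in its annotated exons, had the highest mean over the 6 libraries, 31.8 FPKM, but its range overlapped that of Atg9a (30.8 FPKM), whose mean was the higher one with LPS alone. Vmp1 had 33.7, 34.4 and 31.9 FPKM in LPS plus ultrasound libraries 1, 2 and 3, against 32.1, 29.1 and 29.9 FPKM in LPS libraries 1, 2 and 3. Ultrasound library 3 lay just below LPS library 1, and the other values were separate (difference 0.13 ± 0.07, limma, adjusted p = 0.42). Atg9a averaged 29.8 ± 0.738 FPKM with ultrasound and 31.7 ± 0.557 FPKM with LPS alone. Its groups did not overlap, yet its interval, -0.23 to 0.06, was the narrowest of the group. It shares 42.6% of its 50-base stretches with other genes, among them Gm29253 on the same strand. Atg2a averaged 20.0 ± 1.74 FPKM with ultrasound and 17.1 ± 3.33 FPKM with LPS alone, a difference of 0.23 ± 0.14 that became 0.08 without LPS library 2. Its paralog Atg2b had a difference of -0.01, and of -0.0916 without that library. Wipi2 made up 86.2% ± 0.974 of the summed Wipi1 and Wipi2 FPKM with ultrasound and 82.9% ± 3.08 with LPS alone, with the lowest share in LPS library 2 at 79.3%.

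None of the 6 conjugation genes passed the test, and 5 of them had negative differences. ATG7 activates both ubiquitin-like proteins, ATG10 transfers ATG12 to ATG5, ATG16L1 binds the ATG12-ATG5 conjugate and places it on the membrane, and ATG3 hands ATG8 proteins to lipid. Atg5 was the most abundant, at 21.5, 19.8 and 21.7 FPKM in LPS plus ultrasound libraries 1, 2 and 3, against 23.2, 21.6 and 20.1 FPKM in LPS libraries 1, 2 and 3. The groups overlapped throughout (difference -0.04 ± 0.08, limma, adjusted p = 0.82). Atg7 had the largest difference of the 6, -0.20 ± 0.11, with means of 7.13 ± 0.468 FPKM with ultrasound and 8.40 ± 1.05 FPKM with LPS alone (limma, adjusted p = 0.40). It was lower in each ultrasound library than in the LPS library of the same number. The other 5 had differences of -0.14 to 0.07, and their groups overlapped.

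The 4 ATG4 proteases trim ATG8 proteins before lipid attachment and remove them from membranes afterwards. Atg4b, in mammals the broadest-acting of them, had 9.19, 8.15 and 8.84 FPKM in LPS plus ultrasound libraries 1, 2 and 3, against 10.7, 9.86 and 10.4 FPKM in LPS libraries 1, 2 and 3. Every ultrasound library lay below every LPS library. The difference was -0.22 ± 0.08, with an interval of -0.41 to -0.03 (limma, adjusted p = 0.28, and 0.089 with the replicate block). Atg4c averaged 6.74 ± 0.216 FPKM with ultrasound and 7.80 ± 0.536 FPKM with LPS alone, also without overlap (difference -0.18 ± 0.08, limma, adjusted p = 0.35). Atg4a was the most abundant, at 13.2, 15.4 and 12.2 FPKM in LPS plus ultrasound libraries 1, 2 and 3, against 14.6, 14.6 and 13.2 FPKM in LPS libraries 1, 2 and 3. Its groups overlapped, and 63.6% of its 50-base stretches also occur in other genes, chiefly its pseudogene Atg4a-ps, which was listed at a mean of 0.997 FPKM. Atg4d had 6.72 FPKM in ultrasound library 2 and 3.46 to 4.72 FPKM in the other 5 libraries, and the widest standard error of the group, 0.20. Its exons overlap Kri1 on the opposite strand by 1405 bases. Kri1 was more abundant, at 13.9 ± 2.08 FPKM with ultrasound and 12.15 ± 0.705 FPKM with LPS alone, and its part in the Atg4d values was not tested.

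Of the 5 ATG8 family genes, 4 had positive differences and 3 of these had groups that did not overlap, while none passed the test. Over all tested genes, 9.80% were separated upward and 23.2% in either direction. LC3 proteins act mainly in membrane growth and GABARAP proteins mainly in later maturation and in binding the ULK complex. Gabarapl2, a GABARAP subfamily member, had 39.8, 37.4 and 37.2 FPKM in LPS plus ultrasound libraries 1, 2 and 3, against 35.4, 27.1 and 31.6 FPKM in LPS libraries 1, 2 and 3. The lowest ultrasound value exceeded the highest LPS value, and LPS library 2 was the lowest of all. The difference was 0.28 ± 0.10, with an interval of 0.04 to 0.52 (limma, adjusted p = 0.28, and 0.092 with the replicate block), and 0.18 without LPS library 2. The gene Gm3724 shares sequence with Gabarapl2 and averaged 16.3 ± 0.789 FPKM with ultrasound and 12.9 ± 2.12 FPKM with LPS alone. In all, 17% of the 50-base stretches of Gabarapl2 occur in other genes, so its reads could have been split with such genes.

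Gabarap, the most abundant of the family, had 134.4, 147.9 and 138.7 FPKM in LPS plus ultrasound libraries 1, 2 and 3, against 134.2, 133.7 and 129.6 FPKM in LPS libraries 1, 2 and 3. The groups were separated by a margin smaller than the spread within either of them (difference 0.08 ± 0.07, limma, adjusted p = 0.57). Gabarapl1 averaged 104.5 ± 10.8 FPKM with ultrasound and 92.2 ± 8.21 FPKM with LPS alone, higher in each same-numbered pair (difference 0.18 ± 0.10, limma, adjusted p = 0.43, and 0.097 with the replicate block). Map1lc3b, the gene of the widely used autophagosome marker LC3B, averaged 16.1 ± 0.240 FPKM with ultrasound and 14.1 ± 1.61 FPKM with LPS alone (difference 0.18 ± 0.09, limma, adjusted p = 0.40). Without LPS library 2 this difference was 0.09. Map1lc3a had the only negative difference of the family, -0.12 ± 0.10, which was -0.0353 without LPS library 2 and -0.21 without LPS library 3.

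Gabarap was the largest part of the ATG8 transcript pool in both groups. The 5 genes summed to 316.3, 305.6 and 308.5 FPKM in LPS plus ultrasound libraries 1, 2 and 3, against 297.8, 271.7 and 277.8 FPKM in LPS libraries 1, 2 and 3. Gabarap made up 45.3% ± 2.98 of the sum with ultrasound and 47.0% ± 2.09 with LPS alone. Gabarapl1 made up 33.7% ± 2.92 with ultrasound and 32.6% ± 1.36 with LPS alone, and Gabarapl2 12.3% ± 0.265 with ultrasound and 11.1% ± 0.994 with LPS alone. The LC3 genes held less, with Map1lc3a at 3.58% ± 0.151 with ultrasound and 4.34% ± 0.656 with LPS alone, and Map1lc3b at 5.19% ± 0.0168 with ultrasound and 4.99% ± 0.490 with LPS alone.

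Sqstm1 had the same order of libraries in both groups. SQSTM1, also called sequestosome, carries ubiquitin-tagged cargo to autophagosomes and is itself degraded with it, and its gene is a known NRF2 target. It had 555.6, 651.2 and 513.1 FPKM in LPS plus ultrasound libraries 1, 2 and 3, against 543.6, 647.7 and 482.9 FPKM in LPS libraries 1, 2 and 3. Both libraries numbered 2 were the highest of their group and both numbered 3 the lowest, and the groups overlapped almost fully. The difference was 0.04, with an interval of -0.27 to 0.35, or -0.08 to 0.16 with the replicate block (limma, adjusted p = 0.90 and 0.57), and 0.15 without LPS library 2. Sqstm1 made up 89.6% ± 1.01 of the FPKM of the 5 cargo receptor genes with ultrasound and 89.2% ± 1.57 with LPS alone. Part of its exons, 580 bases, overlaps Mrnip on the opposite strand, which was listed at a mean of 0.488 FPKM.

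The other receptor genes were far lower. NBR1 and TAX1BP1 are ubiquitin-binding receptors, OPTN is an adaptor for bacteria and mitochondria, and CALCOCO1 is a receptor for the endoplasmic reticulum and Golgi. Nbr1 averaged 34.5 ± 1.03 FPKM with ultrasound and 32.9 ± 2.36 FPKM with LPS alone, and Tax1bp1 averaged 23.5 ± 0.825 FPKM with ultrasound and 24.1 ± 1.64 FPKM with LPS alone. Calcoco1 averaged 7.89 ± 0.697 FPKM with ultrasound and 9.09 ± 0.433 FPKM with LPS alone without overlap (difference -0.18 ± 0.09, limma, adjusted p = 0.38). Optn had 0.157, 0.163 and 0.138 FPKM in LPS plus ultrasound libraries 1, 2 and 3, against 0.247, 0.296 and 0.202 FPKM in LPS libraries 1, 2 and 3. Its groups did not overlap either, but it was not tested because of its low level. Of the mitophagy genes, Pink1, the kinase gene that marks damaged mitochondria, averaged 14.3 ± 1.11 FPKM with ultrasound and 14.3 ± 1.86 FPKM with LPS alone (interval of the difference -0.26 to 0.25), and Fundc1, for a mitochondrial outer membrane receptor, had a difference of -0.05, which was 0.0546 without LPS library 2.

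Stx17 had the largest difference of the group and the smallest p. It had 5.45, 5.33 and 5.18 FPKM in LPS plus ultrasound libraries 1, 2 and 3, against 4.24, 3.70 and 2.68 FPKM in LPS libraries 1, 2 and 3. The ultrasound values were close together and all above the LPS values, of which library 3 was the lowest. The ratio of the means was 1.502, and the difference was 0.49 ± 0.14, with an interval of 0.17 to 0.81 (limma, unadjusted p = 0.0084 and adjusted p = 0.22). By unadjusted p it ranked 436 among all tested genes. The limma adjusted p was 0.075 in the fit with the replicate block. The difference was 0.35 without LPS library 3 and 0.52 without LPS library 2. None of its 50-base stretches occurs in another annotated gene.

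**Figure D3:**
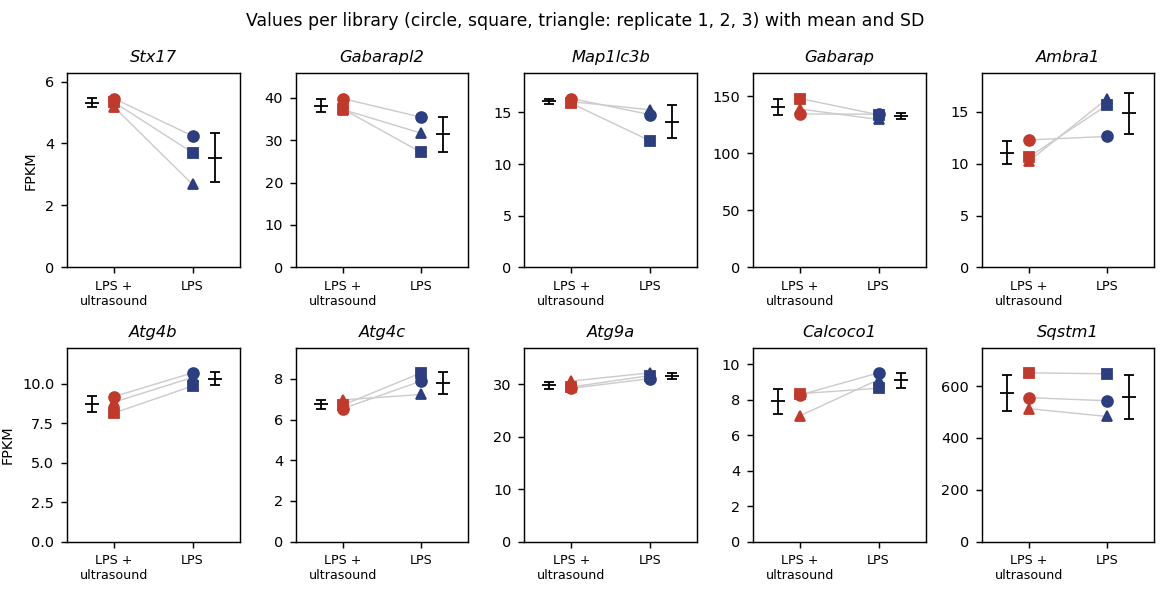
FPKM per library for the 9 tested genes whose groups do not overlap and for Sqstm1, with LPS plus ultrasound left of LPS, grey lines joining libraries of the same number, and bars for mean ± SD (n = 3). The vertical axes start at 0. Stx17 lies at 5.18 to 5.45 FPKM with ultrasound and 2.68 to 4.24 FPKM with LPS alone, and Sqstm1 keeps the same order of libraries in both groups.

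The promoters of the 4 genes with an unadjusted limma p below 0.05 are shown because these genes lead the differences. Each window, from RefSeq on GRCm38.p6, spans 250 bases before and 50 bases from the annotated start, which are in capitals. The windows are chr4:48124669-48124968 (plus strand) for Stx17, chr8:111940453-111940752 (plus strand) for Gabarapl2, chr2:91729888-91730187 (plus strand) for Ambra1 and chr1:93754655-93754954 (plus strand) for Atg4b.
Stx17: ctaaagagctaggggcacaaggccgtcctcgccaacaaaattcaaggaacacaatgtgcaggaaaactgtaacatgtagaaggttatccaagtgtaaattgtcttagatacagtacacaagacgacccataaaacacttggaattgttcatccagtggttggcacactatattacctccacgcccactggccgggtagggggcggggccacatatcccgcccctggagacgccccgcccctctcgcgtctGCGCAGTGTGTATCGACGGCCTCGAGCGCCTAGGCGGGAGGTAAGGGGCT
Gabarapl2: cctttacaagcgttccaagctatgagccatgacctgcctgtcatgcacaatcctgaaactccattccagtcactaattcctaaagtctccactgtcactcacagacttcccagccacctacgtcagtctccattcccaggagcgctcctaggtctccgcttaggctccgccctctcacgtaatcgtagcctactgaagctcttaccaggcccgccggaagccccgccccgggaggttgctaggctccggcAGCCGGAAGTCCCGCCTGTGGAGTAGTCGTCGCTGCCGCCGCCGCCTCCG
Ambra1: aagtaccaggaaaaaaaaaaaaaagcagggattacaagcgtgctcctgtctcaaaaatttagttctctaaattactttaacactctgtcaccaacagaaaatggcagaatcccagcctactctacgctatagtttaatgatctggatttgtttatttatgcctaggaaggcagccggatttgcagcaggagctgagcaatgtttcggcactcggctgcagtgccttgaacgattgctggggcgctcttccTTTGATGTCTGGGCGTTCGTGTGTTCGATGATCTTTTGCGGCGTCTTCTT
Atg4b: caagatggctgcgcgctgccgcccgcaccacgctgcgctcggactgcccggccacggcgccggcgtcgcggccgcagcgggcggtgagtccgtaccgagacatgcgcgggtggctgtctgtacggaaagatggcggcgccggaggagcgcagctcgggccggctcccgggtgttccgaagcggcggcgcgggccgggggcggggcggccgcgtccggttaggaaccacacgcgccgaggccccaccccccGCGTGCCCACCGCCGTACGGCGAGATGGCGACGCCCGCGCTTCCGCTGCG

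RefSeq windows were found for 34 of the 40 genes. They were searched on both strands for CACGTG, the E-box core read by the TFEB family of lysosomal and autophagy regulators, and for TGACNNNGC, the core of the antioxidant response element. CACGTG occurred in 4 of the 34 windows (11.8%), those of Atg3, Atg5, Atg7 and Atg14, against 7.24% of 27025 windows of all genes. TGACNNNGC occurred in 4 (11.8%), those of Ulk2, Atg13, Vmp1 and Map1lc3b, against 12.5%. These matches are descriptions of the letters in the windows. Neither motif lay in the 4 windows printed above. The window of Atg3, chr16:45158579-45158878 (plus strand), held CACGTG at 2 places, in capitals here, and is shown as the member with more than 1 match to it.
Atg3: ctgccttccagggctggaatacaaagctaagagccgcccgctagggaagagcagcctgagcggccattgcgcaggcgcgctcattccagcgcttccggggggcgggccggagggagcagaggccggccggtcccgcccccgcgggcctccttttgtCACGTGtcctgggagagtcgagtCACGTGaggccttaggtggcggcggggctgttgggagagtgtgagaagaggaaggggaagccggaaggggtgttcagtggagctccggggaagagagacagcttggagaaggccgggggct
Atg3 itself had a difference of -0.07 (-0.0415 without LPS library 2), with 16.2 ± 0.822 FPKM with ultrasound and 17.04 ± 0.557 FPKM with LPS alone, and Atg5, Atg7 and Atg14 had differences of -0.04, -0.20 and 0.06, the last of them -0.0262 without LPS library 2.

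For many autophagy genes the same library number was highest or lowest in both groups. The libraries numbered 2 were the lowest of both groups for 15 of the 39 genes and the highest of both for 7, among them Sqstm1, Ulk2 and Becn1. LPS library 2 was the lowest of all 6 libraries for 15 genes and the highest for 8. These counts were not made over all tested genes, so they are not shown to be particular to this group. Deviations from the group means, taken across these 39 genes, correlated at 0.22, 0.58 and 0.61 between same-numbered libraries 1, 2 and 3, and at 0.18, 0.44 and 0.41 across all tested genes. Ultrasound library 1 and LPS library 3 also correlated, at 0.44 across the 39 genes. Genes within a library are not independent replicates, deviations within a group sum to 0, and these are descriptions. In the same-numbered pairs, 12 of the 39 genes were higher with ultrasound in 3 of 3 pairs and 10 were lower in 3 of 3, against 24.3% and 31.0% of all tested genes. With the block, 4 genes of the group were higher and 5 lower at an unadjusted limma p below 0.05 (background 12.6% and 17.1%, or 29.7% in either direction), and 0 passed the adjusted threshold (background 0.115%). The lowest limma adjusted p with the block was 0.075, for Stx17.

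**Figure D4:**
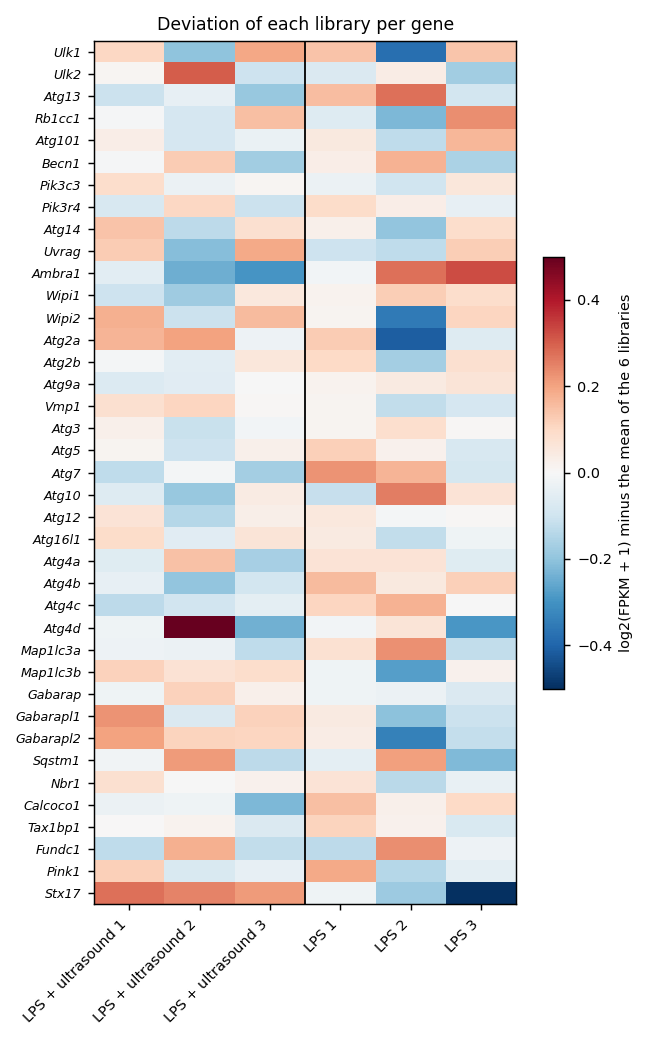
Deviation of each library from the mean of the 6 libraries on the log2(FPKM + 1) scale for the 39 tested autophagy genes, with the LPS plus ultrasound libraries left of the black line and the LPS libraries right of it. The columns of libraries numbered 2 share blue rows, such as Ulk1 and Wipi2, and red rows, such as Sqstm1, while Stx17 is red in all 3 ultrasound libraries and blue in all 3 LPS libraries.

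Beyond the 40, 0 genes of the wider pathway passed. Of 107 listed genes 94 were tested and 0 passed (limma with Benjamini-Hochberg adjustment, background 0.0177%). With ultrasound, 4 of them had higher and 6 lower values at an unadjusted limma p under 0.05 (background 6.18% and 9.16%), and the median difference of all 94 was -0.024. Among 17 further core genes, Rubcnl, whose product promotes autophagosome maturation, had 0.918, 1.06 and 0.955 FPKM in LPS plus ultrasound libraries 1, 2 and 3, against 2.09, 2.57 and 2.03 FPKM in LPS libraries 1, 2 and 3. The groups were well apart, the difference was -0.71 ± 0.11 and the limma adjusted p was 0.13, or 0.058 with the replicate block. Tmem41b, a scramblase gene that works with Vmp1, and Nrbf2, a subunit gene of the lipid kinase complex, had differences of 0.19 ± 0.08 and -0.17 ± 0.08.

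Of 17 further receptor and mitophagy genes, Bnip3, the gene of a mitophagy receptor induced by hypoxia, had 16.3, 22.3 and 13.7 FPKM in LPS plus ultrasound libraries 1, 2 and 3, against 26.1, 39.6 and 28.2 FPKM in LPS libraries 1, 2 and 3. Every ultrasound library lay below every LPS library, and in both groups library 2 was the highest. The difference was -0.81 ± 0.21, with a limma adjusted p of 0.21, or 0.058 with the replicate block. Rtn3 and Sec62, genes of receptors for the endoplasmic reticulum, had differences of 0.21 ± 0.07 and -0.15 ± 0.07. Of 14 fusion genes besides Stx17, Vamp8, for the partner SNARE of syntaxin 17 on the lysosome, had a positive difference of 0.22 ± 0.08. It averaged 32.8 ± 1.70 FPKM with ultrasound and 27.97 ± 2.18 FPKM with LPS alone (limma, adjusted p = 0.29). Snap29, for the SNARE that joins both, had a difference of 0.12. Vps16, for a subunit of the HOPS tether, had -0.39 ± 0.12 (limma, adjusted p = 0.25, and 0.058 with the replicate block), and Ykt6 had 0.15 ± 0.09.

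None of the upstream regulator genes passed the test. Of 25 genes of mTORC1, the kinase complex that restrains ULK1, and its regulators, 0 had an unadjusted limma p below 0.05, against 15.3% of all tested genes. Tsc1, Sesn1 and Flcn had the smallest p, with differences of -0.20 ± 0.09, -0.18 ± 0.08 and 0.49 ± 0.26. None of 10 genes of AMPK and its activating kinases had an unadjusted limma p below 0.05 either, with Stradb the nearest at -0.22 ± 0.11. Of 11 transcription factor genes, 1 was higher and 3 were lower at that level, against 6.18% and 9.16% of all tested genes. Tfeb, for the main activator of lysosomal and autophagy genes, averaged 1.54 ± 0.194 FPKM with ultrasound and 2.37 ± 0.503 FPKM with LPS alone, without overlap (difference -0.40 ± 0.13, limma, adjusted p = 0.25). Foxo1 had a difference of -0.39 ± 0.12 and Bach1, for a repressor of NRF2 targets, 0.38 ± 0.13 (limma, adjusted p = 0.24 and 0.25). Tfe3, the most abundant measured gene of the TFEB family at 16.9 ± 1.40 FPKM with ultrasound and 16.7 ± 2.04 FPKM with LPS alone, had a difference of 0.02.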

How the data were processed

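Libraries of oligo(dT)-selected RNA from RAW 264.7 cells were read from both ends, per the labels, 3 for each of 2 groups. The authors deposited FPKM for 55335 mouse Ensembl genes, but aligner, quantifier and mouse build have no entry in the sources used here. A rat build, mRatBN7.2, stands in the submitters' processing notes, yet all 55335 identifiers are of mouse genes. Columns were assigned by the initial and number shared with the sample titles. Symbols came from GENCODE M21, and coordinates only from RefSeq windows on GRCm38.p6. One listed gene, Ddit3, has 2 identifiers and was left out.

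The table holds no counts. Low values of genes with 1 transcript, multiplied by length, peaked at steps that would mean 25200000 to 29200000 fragments per library, but only 41.4% to 44.1% lay within 5% of a step, so no reads were recovered and no counting error is given. FPKM sums were 278871 to 292200. FPKM is relative to the library, and a 0 can be a failed estimate, as for 10 genes that also exceeded 5 FPKM elsewhere.

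On log2(FPKM + 1), the 11270 genes averaging 1 FPKM or more were fitted with limma 3.58.1 (R 4.3.3; trended variance, robust moderation). Tests were two-sided, and p-values were adjusted over these genes by Benjamini-Hochberg at 0.05. Groups share replicate numbers in their titles. Deviations of same-numbered libraries correlated at 0.18, 0.44 and 0.41 across genes. Libraries of 1 number may therefore be pairs, on the strength of titles and values only. The main fit was unpaired, and differences, standard errors, intervals and p-values come from it where no other fit is named. The fit with the replicate block is an alternative given beside it. The genes, lists and alternatives were chosen with earlier results of these data known. Values per library are given for genes with an unadjusted p below 0.05, for genes past the threshold in either fit and for the most abundant gene of each role. From the other lists the up to 3 genes with the smallest p are named. Optn, Atg9a, Snap29, Tfe3, the library values of Rubcnl and Bnip3, and the family sums were added after their values were seen. The fit was tested on simulated data for 11270 genes of this comparison (LPS plus ultrasound, LPS). It found 50% of 50 genes changed 1.5-fold, 88% of those changed 2-fold, 94% of those changed 3-fold and 98% of those changed 4-fold, beside 2 false calls. The changed genes were drawn from those above about 5 FPKM, and the changes were set on the log2(FPKM + 1) scale. The simulated noise was independent between libraries, without the shared deviations of same-numbered libraries or an outlying LPS library 2. The genes of all these fold changes were set in the same simulated data, and many true changes make the Benjamini-Hochberg threshold easier to pass. In the measured libraries only 2 of the 11270 genes passed. The simulated rates may therefore not hold for the measured libraries, nor for lower genes such as Stx17. Shared 50-base stretches were counted in GENCODE M21 transcripts on both strands.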

Additional observations from a re-analysis of the deposited data

How the results depend on the processing

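None of the 39 genes passed the adjusted limma threshold in any of 16 alternatives, in which their lowest adjusted p was 0.064, for Stx17 with library weights. Over all tested genes 2 passed, against 13 with the replicate block, 223 with library weights (71 higher and 152 lower), 1 with a mean of at least 5 FPKM, 5 with the same FPKM sum per library, 6 without both libraries numbered 2, and 2 to 8 with a single library left out. The replicate block changed no call among the 39 genes. With library weights Rubcnl and Bnip3 passed (limma, adjusted p = 0.020 and 0.044). Stx17 ran from 0.35 to 0.60 over its alternatives, and Gabarapl2 from 0.18 to 0.37, Atg4b from -0.25 to -0.18 and Ambra1 from -0.50 to -0.23. With the same FPKM sum per library, higher genes made up 30.2% of those with an unadjusted p below 0.05, against 40.3% as deposited, 44.1% with median-ratio scaling and 48.6% with quantile normalization. Of the 39 genes 23 kept their sign in all alternatives that could be computed. The other 16 changed sign in at least 1 alternative, and the cause was not tested. In the main fit their differences ran from -0.14 for Atg10 to 0.16 for Atg4d. Rb1cc1 turned to -0.0052 with library weights and -0.0095 without both libraries numbered 2, Atg12 to 0.0296 and 0.0204, and Atg10 to 0.0106 without both. Pink1 turned to 0.0041 with median-ratio scaling, 0.0122 with quantile normalization and 0.0354 with library weights. With quantile normalization Atg2b turned to 0.031 and Sqstm1 to -0.0906. Leaving out a single library gave ranges of -0.11 to 0.18 for Ulk1, -0.0622 to 0.17 for Rb1cc1, -0.14 to 0.0115 for Atg101, -0.12 to 0.0441 for Becn1, -0.0262 to 0.14 for Atg14, -0.0056 to 0.19 for Uvrag, -0.0916 to 0.0431 for Atg2b, -0.0923 to 0.0073 for Atg5, -0.0744 to 0.0325 for Atg12, -0.14 to 0.0164 for Atg4a, -0.0502 to 0.32 for Atg4d, -0.0567 to 0.15 for Sqstm1, -0.0844 to 0.010 for Tax1bp1, -0.15 to 0.0546 for Fundc1 and -0.0715 to 0.0948 for Pink1. Among genes that kept their sign, the ranges were -0.33 to -0.14 for Atg13, 0.08 to 0.35 for Atg2a, -0.21 to -0.0353 for Map1lc3a, 0.09 to 0.24 for Map1lc3b, 0.0427 to 0.11 for Gabarap, 0.11 to 0.26 for Gabarapl1 and -0.22 to -0.12 for Calcoco1. With 3 libraries per group, changes near 1.5-fold can be missed, and so can larger ones. Rubcnl and Bnip3 had ratios of the means, ultrasound over LPS alone, of 0.4375 and 0.558. Neither passed in the main fit (limma, adjusted p = 0.13 and 0.21).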
